A study of Homo sapiens with 16 samples.

Results

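Genes of cholesterol and fatty acid synthesis were followed in LX-2, an established cell line derived from human liver stellate cells. They were taken by gene symbol from a list of 34, and all 34 were found among the 61806 genes of the deposited table. They fall into 18 steps of sterol synthesis, 6 genes of sterol sensing and transport, 7 steps of fatty acid synthesis, and 3 genes of cholesterol efflux or of the response to oxysterols. All 34 passed edgeR's filter on low counts, as did 16029 genes in all. RNA with poly(A) tails was sequenced in 4 groups of 4 biological replicates. Wild-type LX-2 cells received PBS (WT) or recombinant human TWEAK at 100 ng/mL for 2 h, after 24 h of culture. CRISPR/Cas9 had been used to make the other 2 lines, one targeted at Fn14alpha (Fn14alpha knockout) and the other at total Fn14 (Fn14 knockout), and both received PBS. All groups grew in a reduced-serum endothelial medium that the labels give with 2% bovine serum albumin. The sources used here do not say if a knockout line came from 1 clone, so genotype and line cannot be told apart. Nothing says how replicates were separated, so p-values measure only the spread between these samples, which may be technical.

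Cholesterol is built from acetyl-CoA through mevalonate, isoprenoid units, squalene and lanosterol. Most of the enzymes are transcribed under the SREBP factors, the products of SREBF1 and SREBF2, which SCAP carries out of the endoplasmic reticulum when sterol is scarce and INSIG proteins hold back when it is ample. SREBP factors also act on fatty acid synthesis, whereas ABCA1, ABCG1 and MYLIP are targets of the oxysterol receptors (LXR). Stellate cells are known for storing retinyl esters in lipid droplets, and cholesterol load is known to affect their activation. TWEAK is a TNF family cytokine and Fn14, encoded by TNFRSF12A, is its receptor.

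Total counts per library ran from 13335919 to 16888606. TNFRSF12A, the targeted gene, was below WT in all 8 knockout libraries, at 59.3 ± 6.43 FPKM without Fn14alpha and 33.6 ± 2.77 FPKM without Fn14, against 128 ± 6.29 FPKM in WT and 130 ± 7.07 FPKM after TWEAK (SD, n = 4). FPKM is the count divided by the exonic size of the gene and by the total of the library. A count per gene covers all its transcripts and does not show which isoform is left. Of 12 stellate or fibroblast markers, 10 were at 1 FPKM or more in WT, and LRAT had no count there. The summed level of that list was lowest without Fn14alpha (530 to 551 FPKM), then 664 to 702 in WT, 842 to 928 after TWEAK and 950 to 987 without Fn14. Single markers went both ways. Under 1 FPKM on average were 2 in WT and 5 in each knockout. By the test given below, 1 was higher and 7 lower than WT without Fn14alpha (20% and 22.2% of all genes). Without Fn14, 5 were higher and 4 lower (26.6% and 26.3%), and with TWEAK 1 was higher and 2 lower (4.82% and 2.05%). The part of these shifts in the results was not tested. Hepatocyte markers, from a cell type with high sterol synthesis, summed to 0.3 to 3.16 FPKM over the 16 libraries, endothelial markers to 0.65 to 2.19, leukocyte markers to 0.79 to 2.8 and cholangiocyte markers to 5.43 to 12.9. In bulk RNA, fewer cells with a transcript and less of it per cell cannot be told apart.

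On principal component 3, WT replicate 4 (37) and replicate 1 of the Fn14 knockout (24.5) stood off from the rest (−19.9 to 10.4). In both, the shift of the members went with gene length. Of 33 members with a group mean of at least 1 FPKM, WT replicate 4 was above its 3 fellow libraries in 13 (median exonic size 4294 bases) and below all of them in 16 (median 7895 bases). Fn14 knockout replicate 1 was above in 13 (median 4294 bases) and below in 17 (median 7274 bases). Counts are therefore also given without both libraries.

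**Figure D1:**
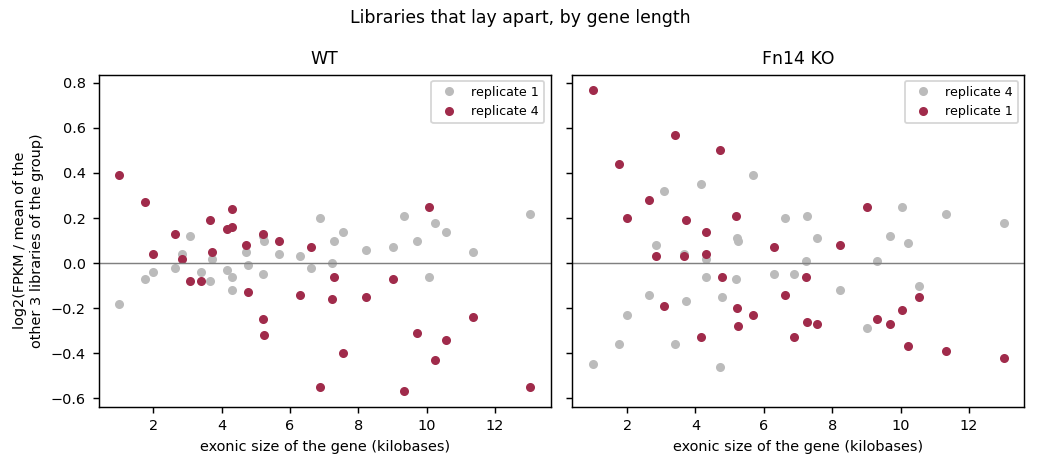
Each point is 1 member, with the exonic size of the gene on the x axis (kilobases) and the log2 ratio of its FPKM to the mean of the other 3 libraries of the group on the y axis. In WT replicate 4 and Fn14 knockout replicate 1 (dark) short genes tend to lie above 0 and long genes below it, and WT replicate 1 and Fn14 knockout replicate 4 (grey) are drawn for comparison.

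Promoter sequence was looked up because the sterol genes moved together in these lines. RefSeq windows (GRCh38.p14) of the 250 bases before the annotated start were found for 29 members, 38 windows in all, since several genes have more than 1 start. The 5 shown here belong to the 2 sterol enzymes with the largest decreases in the Fn14alpha knockout, to SREBF2 and INSIG1, the regulators of the pathway, and to ABCA1, the member with the largest response to TWEAK. They lie at chr22:41832855-41833104 (plus strand), chr7:155297628-155297877 (plus strand), chr5:43313413-43313662 (minus strand), chr4:165327419-165327668 (plus strand) and chr9:104928156-104928405 (minus strand). Each is written 5′ to 3′ on the strand of the gene. Capitals mark, on either strand, TCACNCCAC (a form of the sterol regulatory element), CCAAT (the box bound by NF-Y, a partner of SREBP) and CACGTG (an E-box).
SREBF2: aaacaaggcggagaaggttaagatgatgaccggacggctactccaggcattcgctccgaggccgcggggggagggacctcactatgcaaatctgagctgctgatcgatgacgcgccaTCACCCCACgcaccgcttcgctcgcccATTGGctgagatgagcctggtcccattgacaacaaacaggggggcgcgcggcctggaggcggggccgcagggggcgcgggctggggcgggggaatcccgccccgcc
INSIG1: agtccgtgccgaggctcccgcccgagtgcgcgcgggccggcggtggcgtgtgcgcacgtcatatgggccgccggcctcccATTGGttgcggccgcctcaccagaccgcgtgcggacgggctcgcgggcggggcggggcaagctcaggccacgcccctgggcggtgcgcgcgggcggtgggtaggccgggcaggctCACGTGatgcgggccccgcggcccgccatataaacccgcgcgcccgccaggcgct
HMGCS1: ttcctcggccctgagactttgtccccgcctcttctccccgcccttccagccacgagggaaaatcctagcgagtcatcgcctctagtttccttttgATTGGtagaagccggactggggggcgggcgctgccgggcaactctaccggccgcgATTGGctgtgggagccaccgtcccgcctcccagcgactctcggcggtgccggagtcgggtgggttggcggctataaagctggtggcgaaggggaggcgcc
MSMO1: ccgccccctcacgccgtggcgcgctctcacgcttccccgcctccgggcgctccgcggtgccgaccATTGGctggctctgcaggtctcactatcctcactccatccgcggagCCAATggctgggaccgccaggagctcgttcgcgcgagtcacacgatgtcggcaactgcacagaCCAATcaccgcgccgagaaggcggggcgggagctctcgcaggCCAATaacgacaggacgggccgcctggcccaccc
ABCA1: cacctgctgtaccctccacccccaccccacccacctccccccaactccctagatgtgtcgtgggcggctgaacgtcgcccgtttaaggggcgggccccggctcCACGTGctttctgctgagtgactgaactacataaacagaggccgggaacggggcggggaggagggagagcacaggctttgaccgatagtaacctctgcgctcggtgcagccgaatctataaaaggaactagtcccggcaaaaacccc
CCAAT was found in 15 of 20 windows of the sterol steps (75.0%), against 32.0% of all 35116 windows. GGGCGG, the GC box, was in 18 of these 20 (90.0%) and in 42.6% of all windows, and CACGTG in 2 of them, against 6.34% of all. These 2 windows overlap, belong to SC5D and hold the same site. Counted by gene, CCAAT was in 13, GGGCGG in 14 and CACGTG in 1 of 15 sterol steps with a window. Over all 27305 genes with a window the counts were 10102, 12625 and 2110. The GC box was as common in other roles, in 8 of 10 windows of the fatty acid steps and 6 of 6 of sensing and transport. CCAAT was in 5 of 10 and 3 of 6 of these. TCACNCCAC was in 1 member window, that of SREBF2, and in 0.883% of all windows. An exact form of the LXR element, AGGTCA repeated after 4 bases, was in 0 member windows and in 5 of all windows. Elements that depart from these letters were not searched, so this count does not show that a window lacks an LXR element. The NF-kB consensus was in 6 of 38 member windows (15.8%, against 9.96% of all) and not in that of ABCA1. No capital stretch shown overlaps another motif searched. A match of letters is not evidence of binding.

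In the Fn14alpha knockout nearly the whole sterol pathway was lower than in WT, and in the Fn14 knockout 10 of its 18 steps were higher. Calls are those of edgeR's quasi-likelihood test with Benjamini-Hochberg adjustment over 16029 genes and a threshold of 0.05. Of the 18 sterol steps, 17 were lower (22.2% of all genes were) and 1 was higher (20%) in the Fn14alpha knockout, with a median log2 fold change of −0.5. In the Fn14 knockout 10 were higher (26.6% of all genes), 2 were lower (26.3%) and 6 did not pass, with a median of 0.23. With total counts in place of TMM scaling, 6 were higher (19.9% of all genes) and 2 lower (35.4%), with a median of 0.11. With TWEAK 5 were lower (2.05% of all genes), 0 were higher (4.82%) and 13 did not pass, with a median of −0.25. Comparisons with WT share its 4 libraries. The direct comparison of the lines does not use the WT mean, though the WT libraries enter the shared filter, scaling and estimate of spread. In that comparison 16 sterol steps were higher in the Fn14 knockout (30.7% of all genes), 1 was lower (28.5%) and 1 did not pass, with a median of 0.95. The medians over all genes tested were −0.01 with TWEAK, 0.01 in the Fn14alpha knockout, −0.01 in the Fn14 knockout and −0.0003 between the lines.

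Over all roles, in the Fn14alpha knockout 42.2% of genes were called and 31 of 34 members were (7 higher, 24 lower). In the Fn14 knockout 52.9% of genes were called and 24 of 34 members (19 higher, 5 lower). Between the lines 59.2% were called and 30 of 34 members (25 higher, 5 lower). With TWEAK 6.87% were called and 6 of 34 members (1 higher, 5 lower). Without the 2 libraries that lay apart, 31, 27, 31 and 10 members were called in these comparisons in the same order, where 44.6%, 54.9%, 61.8% and 8.34% of all genes were. With total counts in place of TMM, the median of all genes shifted to −0.12 in the Fn14 knockout and −0.15 between the lines, and the calls over all genes became 3196 higher and 5671 lower, and 3668 higher and 6147 lower. The split with TWEAK became 586 higher and 749 lower, from 773 and 328. Fold values come from the edgeR fit and can differ from ratios of FPKM.

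**Figure D2:**
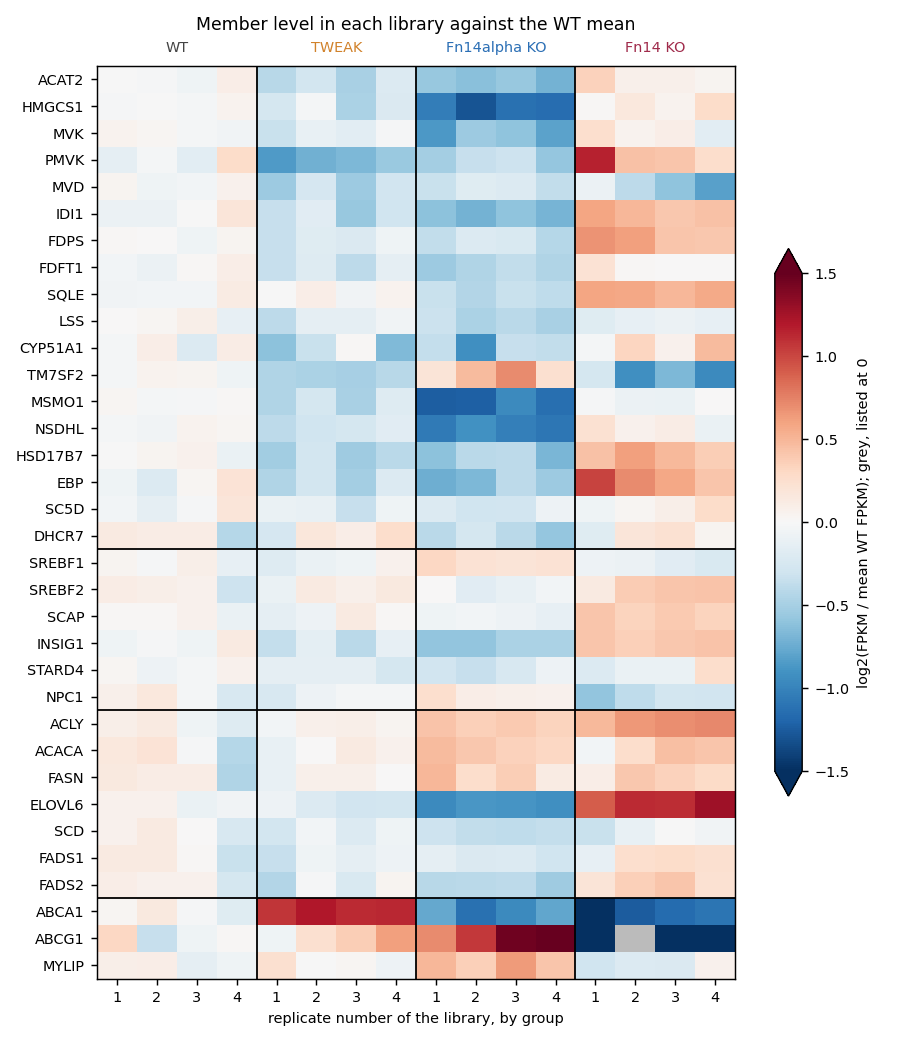
Each row is a member, grouped by role, and each column is 1 of the 16 libraries, numbered by replicate within its group. Colour gives log2 of the FPKM over the mean WT FPKM and is capped at 1.5 either way, and grey marks a value listed at 0. Most sterol steps are blue in all Fn14alpha knockout libraries, and ABCA1 is red with TWEAK and blue in both knockouts.

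The first steps make mevalonate and turn it into isoprenoid units. HMGCS1, which condenses acetoacetyl-CoA to HMG-CoA, was at 46.1, 46.3, 45.8 and 48.3 FPKM in the WT libraries and at 38.9, 45.6, 33.6 and 40.1 with TWEAK. It was at 22.7, 18.9, 21.5 and 21.2 FPKM in the Fn14alpha knockout and at 47.4, 52.2, 48.4 and 56.7 in the Fn14 knockout. The Fn14alpha knockout lay below every other library, 2.26-fold below WT (log2 fold change −1.18 ± 0.08 SE, edgeR adjusted p = 2.01e-11), and 2.69-fold below the Fn14 knockout. The Fn14 knockout overlapped WT and its small excess (0.25 ± 0.08) did not pass with total counts.

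ACAT2, the thiolase that joins acetyl-CoA units, ran at 49.8, 49.4, 47.9 and 53.7 FPKM in WT and at 37.4, 41.6, 35.6 and 43.3 with TWEAK. Its values were 33.7, 32.4, 33.8 and 30.7 FPKM in the Fn14alpha knockout, and 63.9, 53.1, 53.0 and 51.5 in the Fn14 knockout. Both the TWEAK and the Fn14alpha knockout libraries lay below all WT libraries (log2 fold changes −0.29 ± 0.08 and −0.65 ± 0.08). The 3′ end of ACAT2 overlaps TCP1 on the other strand, and reads of the pair may not be told apart, since no source used here states the strand setting of the counting.

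The kinases MVK and PMVK phosphorylate mevalonate in turn. MVK was low throughout, at 6.36, 6.26, 6.0 and 5.92 FPKM in WT and 4.88, 5.67, 5.50 and 6.05 with TWEAK. Without Fn14alpha it was at 3.39, 4.21, 4.05 and 3.53 FPKM, below all other libraries (−0.73 ± 0.09 against WT), and in the Fn14 knockout at 7.30, 6.35, 6.56 and 5.50. PMVK, the shortest member, was at 11.1, 11.9, 10.9 and 14.7 FPKM in WT and fell to 6.73, 7.35, 7.62 and 8.23 with TWEAK, with no overlap. That was the largest decrease of a member with TWEAK (−0.64 ± 0.17, edgeR adjusted p = 0.0178), and it did not pass without WT replicate 4, TWEAK replicate 1 or TWEAK replicate 2 (largest adjusted p over its alternatives 0.0751). PMVK was at 8.54, 9.59, 9.80 and 8.09 FPKM in the Fn14alpha knockout, and at 26.9, 16.5, 16.2 and 14.5 in the Fn14 knockout, where replicate 1 stood far above the others and the lowest library lay just below the highest of WT.

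IDI1 and FDPS build the isoprenoid chain. IDI1, the isomerase of isopentenyl diphosphate, stood at 23.2, 23.2, 24.6 and 28.0 FPKM in WT and at 19.6, 22.0, 16.7 and 20.1 with TWEAK. The 2 knockouts parted on either side of WT, at 16.1, 15.1, 16.4 and 15.2 FPKM without Fn14alpha and 37.4, 34.9, 32.9 and 33.6 without Fn14 (log2 fold changes against WT −0.69 ± 0.08 and 0.60 ± 0.08). FDPS, farnesyl diphosphate synthase, had 33.8, 33.6, 32.0 and 34.3 FPKM in WT and 26.4, 29.6, 28.7 and 31.9 with TWEAK. It was at 25.9, 29.1, 28.5 and 24.8 FPKM in the Fn14alpha knockout and at 53.4, 51.4, 44.8 and 44.4 in the Fn14 knockout (0.65 ± 0.07 against WT, edgeR adjusted p = 7.18e-08). MVD, the decarboxylase between PMVK and IDI1, was lower than WT in both knockouts (−0.30 ± 0.11 and −0.33 ± 0.11). The former call was lost in 6 alternatives, and the latter value turned to 0.25 ± 0.11 with neighbouring genes, whose median was −0.58, removed.

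SQLE, squalene epoxidase, is a rate-limiting enzyme of the later pathway. Its levels with TWEAK (33.3, 36.1, 32.5 and 34.8 FPKM) overlapped those of WT (32.6, 32.7, 32.8 and 36.5). They were 26.8, 24.8, 26.7 and 25.9 FPKM in the Fn14alpha knockout and 50.6, 50.2, 47.6 and 50.1 in the Fn14 knockout, so that the 3 groups given PBS did not overlap. The log2 fold change was −0.40 ± 0.06 in the Fn14alpha knockout (edgeR adjusted p = 6.47e-06) and 0.68 ± 0.06 in the Fn14 knockout (edgeR adjusted p = 8.12e-10).

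After the ring is closed, MSMO1, NSDHL and HSD17B7 act together to remove methyl groups from it. MSMO1, the oxygenase, had the highest mean of the sterol steps in WT, at 72.3, 69.3, 69.5 and 71.6 FPKM in WT and 51.7, 58.9, 50.5 and 62.1 with TWEAK. Without Fn14alpha it had 30, 30.1, 36.6 and 32.3 FPKM, 2.24-fold below WT (−1.16 ± 0.07), while the Fn14 knockout (69.5, 66.6, 66.0 and 71.0) overlapped WT. NSDHL, the dehydrogenase, was at 43.8, 43.3, 46.3 and 45.8 FPKM in WT and 34.3, 36.3, 37.3 and 39.9 with TWEAK. It was at 21.5, 23.8, 22.1 and 21.2 FPKM in the Fn14alpha knockout (−1.05 ± 0.07) and at 52.4, 47.0, 48.4 and 41.9 in the Fn14 knockout. HSD17B7, the ketoreductase, was scarce, at 3.66, 3.80, 3.85 and 3.44 FPKM in WT and 2.58, 3.04, 2.56 and 2.79 with TWEAK (−0.37 ± 0.09, edgeR adjusted p = 0.0127). It was at 2.42, 2.80, 2.81 and 2.3 FPKM in the Fn14alpha knockout and 4.99, 5.64, 5.19 and 4.76 in the Fn14 knockout, below and above all WT libraries.

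EBP, the isomerase that follows, was at 17.1, 15.5, 18.2 and 20.4 FPKM in WT and at 13.01, 14.8, 12.5 and 15.4 with TWEAK. It was higher in the Fn14 knockout, with 35.9, 29.1, 26.7 and 23.7 FPKM (0.81 ± 0.11), and in the Fn14alpha knockout it was at 10.8, 11.2, 13.6 and 12.3. TM7SF2, a sterol reductase with a paralog, LBR, of the same activity, was the 1 sterol step higher in the Fn14alpha knockout (4.42 ± 0.751 against 3.3 ± 0.128 FPKM, SD, n = 4; 0.39 ± 0.13) and lower in the Fn14 knockout (2.07 ± 0.481; −0.56 ± 0.14). With the median of neighbouring genes removed, a comparison described further on, its excess in the Fn14alpha knockout did not pass (0.26 ± 0.13). The remaining sterol steps, FDFT1, LSS, CYP51A1, SC5D and DHCR7, were all called lower in the Fn14alpha knockout (−0.51 to −0.25) and higher in the Fn14 than in the Fn14alpha knockout (0.45 to 0.85). The SC5D call against WT was lost in 6 alternatives, leaving out WT replicate 4 among them. Against WT, only FDFT1 of these 5 was called in the Fn14 knockout (0.18 ± 0.07), and that call was lost under several alternatives, among them total counts and leaving out WT replicate 1 or 2. CYP51A1, lanosterol demethylase, was listed at only 1.13 to 2.96 FPKM over the 16 libraries, and 25687 bases of its span are shared with AKAP9 on the other strand.

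**Figure D3:**
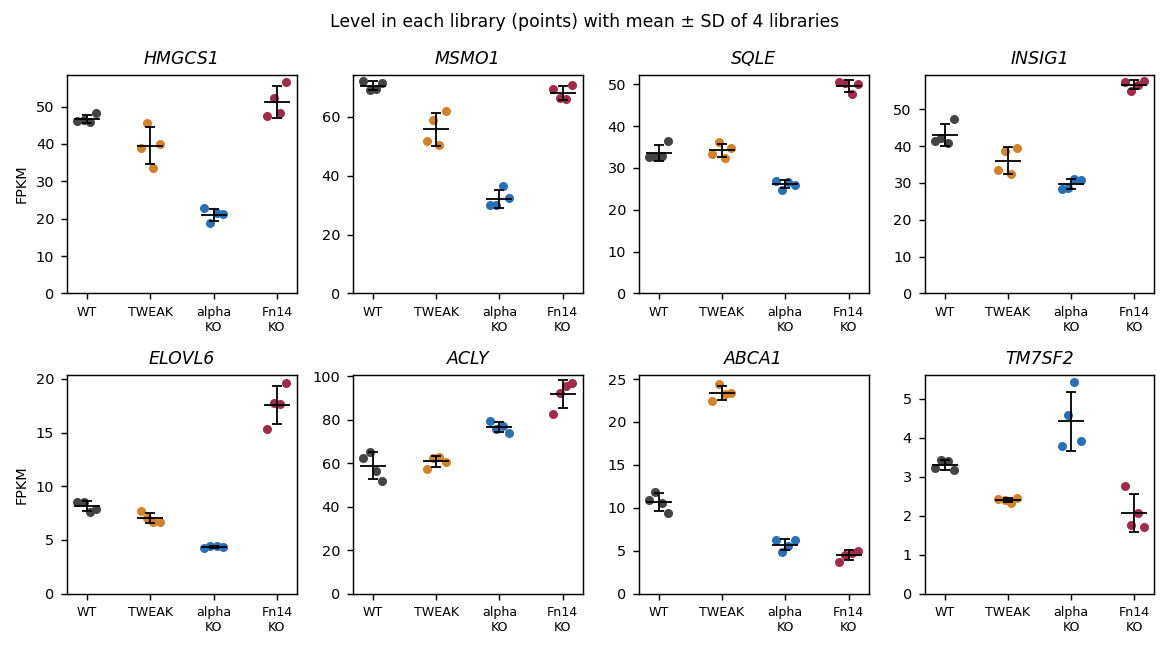
FPKM of 8 members in each library (points) with the mean ± SD of the 4 libraries of a group (bar and whiskers). The y axis is FPKM from 0 and the x axis the 4 groups. HMGCS1 and MSMO1 are lowest in the Fn14alpha knockout, SQLE, INSIG1 and ELOVL6 lie below WT in it and above WT in the Fn14 knockout, ABCA1 is high with TWEAK and low in both knockouts, and TM7SF2 is above WT in the Fn14alpha knockout and below it in the Fn14 knockout.

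With TWEAK the called sterol steps were ACAT2, PMVK, IDI1, MSMO1 and HSD17B7, each with all TWEAK libraries below all WT libraries. Decreases were small, between −0.64 and −0.28 on the log2 scale. The call count of all members was 3 without WT replicate 4, 2 without TWEAK replicate 1, 2 without TWEAK replicate 3 and 11 without Fn14 knockout replicate 1. Each of these sterol calls was lost with at least 1 choice of the library left out, whereas ABCA1 kept its call in all. Calls over all genes moved too, from 759 to 1604 with 1 library left out, against 1101 with all libraries. Without both libraries that lay apart 8 sterol steps were lower (2.65% of all genes) and 0 higher (5.69%).

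The genes of sterol sensing moved less evenly. INSIG1, itself an SREBP target, was at 41.3, 42.3, 40.8 and 47.4 FPKM in WT and 33.4, 38.8, 32.6 and 39.6 with TWEAK. It was lower in the Fn14alpha knockout, at 28.5, 28.5, 31.0 and 30.8 FPKM (−0.57 ± 0.07, edgeR adjusted p = 5.19e-07), and higher in the Fn14 knockout, at 57.6, 55.1, 56.5 and 57.8 (0.52 ± 0.07, edgeR adjusted p = 8.8e-07). No library of either knockout overlapped WT, and the lines differed 2.12-fold.

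SREBF2 encodes the SREBP most tied to cholesterol. Its WT libraries were at 31.1, 30.9, 30.3 and 23.4 FPKM, the last being replicate 4, and those with TWEAK at 26.9, 31.9, 30.5 and 32.0. The Fn14alpha knockout was at 29.1, 25.8, 26.8 and 28.1 FPKM, and did not pass (−0.11 ± 0.08, edgeR adjusted p = 0.31). Its overlap with WT rests on WT replicate 4: without that library the Fn14alpha knockout was lower (−0.19 ± 0.07, edgeR adjusted p = 0.0334), and over all alternatives the adjusted p ran from 0.00506 to 0.59. The Fn14 knockout, at 31.8, 37.7, 38.6 and 38.8 FPKM, lay above WT (0.46 ± 0.08, edgeR adjusted p = 4.05e-05). SCAP, the escort protein, was at 14.9, 14.8, 15.3 and 13.6 FPKM in WT, 13.3, 13.9, 16.1 and 14.9 with TWEAK and 13.9, 14.3, 13.8 and 13.5 in the Fn14alpha knockout. Only the Fn14 knockout, at 19.7, 18.4, 19.2 and 18.5 FPKM, stood clear of WT (0.49 ± 0.06).

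SREBF1, whose product is more tied to fatty acids, was at 9.58, 9.14, 9.88 and 8.58 FPKM in WT and 8.15, 8.67, 8.85 and 9.72 with TWEAK. The Fn14alpha knockout was slightly higher, at 11.5, 10.8, 10.6 and 10.8 FPKM (0.20 ± 0.07, edgeR adjusted p = 0.0171), a call lost without WT replicate 4 or Fn14alpha knockout replicate 1. The Fn14 knockout, at 8.80, 8.71, 8.29 and 7.94, did not pass against WT. SREBF1 shares 1055 bases with RAI1 on the other strand, so reads of the pair may not be told apart. RAI1 was at 6.74 FPKM in WT and 10.9 in the Fn14alpha knockout. Of the transport genes, STARD4, which moves cholesterol through the cytosol, was lower in the Fn14alpha knockout (−0.27 ± 0.08). It did not pass there with the median of neighbouring genes removed (−0.17 ± 0.08, edgeR adjusted p = 0.105). NPC1, which exports cholesterol from lysosomes, was lower in the Fn14 knockout (−0.26 ± 0.08). With TWEAK none of these 6 genes passed.

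Fatty acid steps split by gene. None of the 7 passed with TWEAK (range −0.15 to 0.11). In the Fn14alpha knockout 3 were higher and 4 lower (median −0.24), where 20% of all genes were higher and 22.2% lower. Without Fn14, 6 were higher and 0 lower (median 0.41), where 26.6% of all genes were higher and 26.3% lower. With neighbours removed, 3 were higher and 0 lower without Fn14 (median 0.11), against 19.9% and 22% of all genes. In the Fn14alpha knockout 0 were then higher and 4 lower (median −0.3), against 14.4% and 16.6% of all genes. ELOVL6, which lengthens palmitate to stearate, differed most: 8.57, 8.57, 7.58 and 7.88 FPKM in WT and 7.72, 7.06, 6.68 and 6.69 with TWEAK. The Fn14alpha knockout was at 4.21, 4.45, 4.44 and 4.32 FPKM (−0.94 ± 0.08, edgeR adjusted p = 6.63e-10). The Fn14 knockout was at 15.3, 17.7, 17.6 and 19.6 FPKM (1.22 ± 0.07, edgeR adjusted p = 9.42e-13). The lines thus differed 4.47-fold.

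ACLY, which makes cytosolic acetyl-CoA from citrate, was higher in both knockouts. It was at 62.5, 65.0, 56.2 and 51.6 FPKM in WT and 57.4, 62.4, 62.7 and 60.7 with TWEAK. The knockouts lay above all of these, at 79.4, 75.5, 77.2 and 73.8 FPKM without Fn14alpha (0.35 ± 0.07) and 82.7, 92.1, 95.5 and 97.0 without Fn14 (0.76 ± 0.07). ACACA and FASN, which make malonyl-CoA and palmitate, were also called higher in both knockouts (0.35 ± 0.11 and 0.29 ± 0.1 without Fn14alpha, 0.40 ± 0.11 and 0.41 ± 0.1 without Fn14). FASN overlapped WT in both knockouts, and ACACA overlapped WT in the Fn14 knockout. The FASN call without Fn14alpha was lost in 5 alternatives, leaving out WT replicate 4 among them. The ACACA call without Fn14 was lost in 3 alternatives. The desaturases SCD, FADS1 and FADS2 were lower in the Fn14alpha knockout (−0.39 ± 0.08, −0.24 ± 0.09 and −0.46 ± 0.09), and FADS1 and FADS2 were higher in the Fn14 knockout (0.29 ± 0.09 and 0.42 ± 0.09). The FADS1 groups overlapped in both. Its calls were lost in 9 alternatives without Fn14alpha, total counts and 6 single libraries left out among them, and in 4 without Fn14, where it went to 0.09 ± 0.09 with neighbours removed. SCD was the most abundant member, at 146 FPKM on average in WT. FADS1 and FADS2 share 29692 bases on opposite strands, so their reads may not be told apart.

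Of the 3 efflux genes and LXR targets, ABCA1 alone passed with TWEAK. ABCA1, which loads cellular cholesterol onto apolipoprotein, rose from 10.9, 11.8, 10.5 and 9.38 FPKM in WT to 22.4, 24.5, 23.2 and 23.4 within 2 h (2.28-fold, log2 fold change 1.19 ± 0.09, edgeR adjusted p = 4.08e-10). In both knockouts it was below every WT library, at 6.26, 4.91, 5.51 and 6.21 FPKM without Fn14alpha (−0.93 ± 0.09, edgeR adjusted p = 7.42e-09). Without Fn14 it was at 3.65, 4.49, 4.79 and 5.02 FPKM (−1.13 ± 0.09, edgeR adjusted p = 1.34e-10). The lines overlapped each other and their difference did not pass (−0.20 ± 0.09, edgeR adjusted p = 0.0542). These 3 calls against WT were kept under every alternative run.

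ABCG1, which exports cholesterol to lipoprotein particles, was barely expressed. It was listed at 0.22, 0.14, 0.17 and 0.18 FPKM in WT and 0.17, 0.21, 0.23 and 0.27 with TWEAK, which did not pass. Without Fn14alpha it was at 0.29, 0.37, 0.49 and 0.56 FPKM, above all WT libraries (1.25 ± 0.26, edgeR adjusted p = 3.68e-04). In the Fn14 knockout it had 3 counts over the 4 libraries, against 67 in WT and 152 in the Fn14alpha knockout. Relative to library totals that is 21.8-fold lower than WT (95% exact binomial interval 7.13 to 108) and 53.3-fold lower than the Fn14alpha knockout (17.9 to 261), intervals that cover counting error only. MYLIP, a ubiquitin ligase for lipoprotein receptors, was at 2.71, 2.74, 2.31 and 2.45 FPKM in WT and 3.01, 2.53, 2.61 and 2.42 with TWEAK. It was at 3.62, 3.27, 3.99 and 3.42 FPKM in the Fn14alpha knockout (0.45 ± 0.11) and at 2.07, 2.20, 2.19 and 2.68 in the Fn14 knockout. With neighbours removed MYLIP did not pass in the Fn14alpha knockout (0.13 ± 0.11) and was lower than WT in the Fn14 knockout (−0.41 ± 0.12, edgeR adjusted p = 0.00613).

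**Figure D4:**
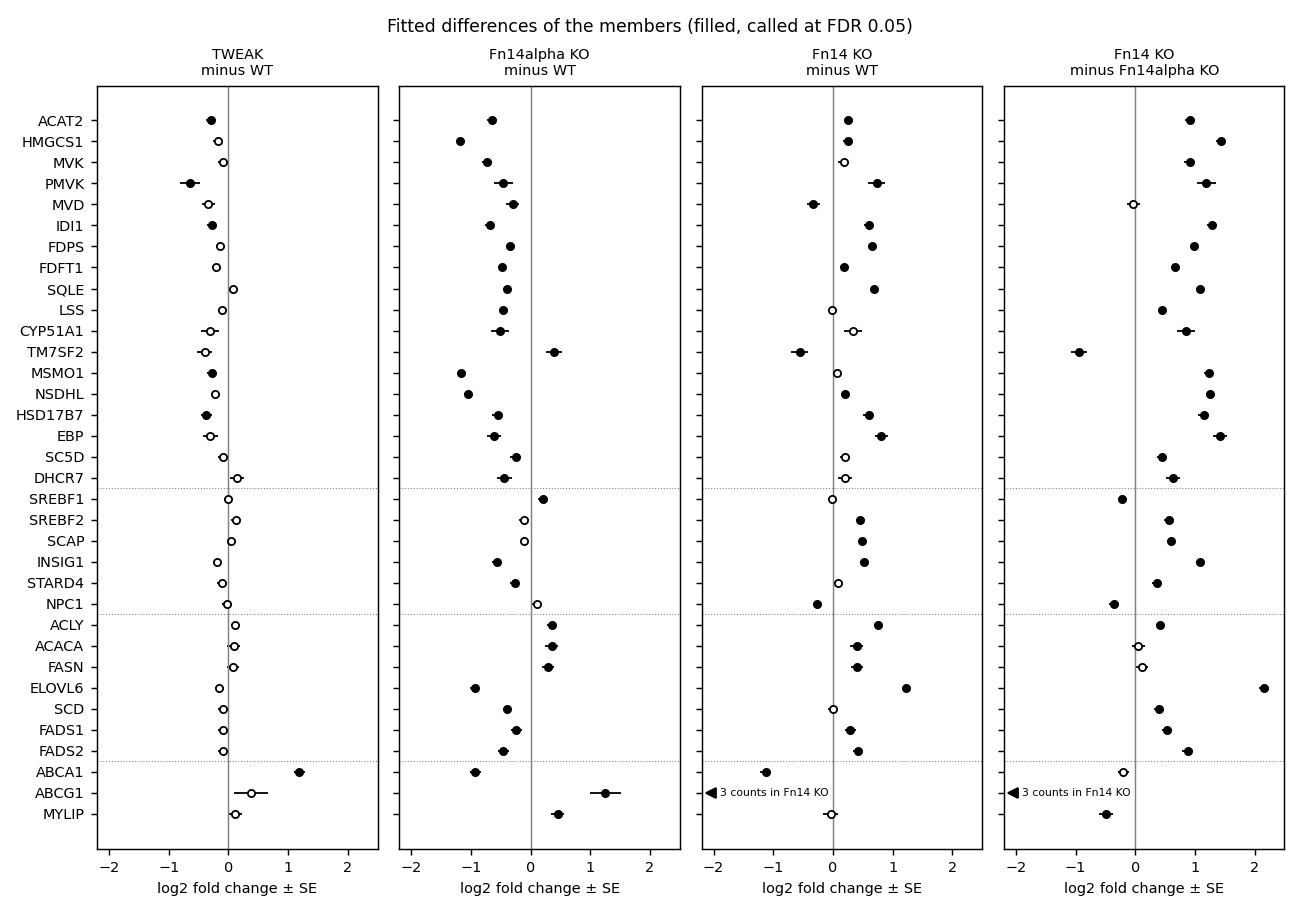
Log2 fold change ± SE of each member from the edgeR fit, with 1 panel per comparison and filled points for called genes. Triangles mark ABCG1, which had 3 counts in the Fn14 knockout. With TWEAK ABCA1 alone lies far from 0, and sterol steps apart from TM7SF2 lie left of 0 in the Fn14alpha knockout and mostly right of 0 between the lines.

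Stretches of chromosome are shifted in the knockout lines, so each member was also compared with its neighbours, by removing the median log2 fold change of the 20 nearest tested genes on each side. That median came from the same data and entered the fit as a fixed value. The SE and adjusted p of values with neighbours removed therefore leave out its own error and the scatter of the neighbours. ACLY, ACACA, FASN and SREBF1 are the 4 members on chromosome 17. Their neighbours were higher in the Fn14alpha knockout (medians 0.36, 0.37, 0.23 and 0.50), and with this removed ACLY, ACACA and FASN were at −0.01, −0.01 and 0.06 and no longer passed, while SREBF1 turned to −0.30. In the Fn14 knockout ACLY kept a difference of 0.34 ± 0.07 (edgeR adjusted p = 2.32e-04), and ACACA (−0.02) and FASN (−0.14) did not. SCAP, whose neighbours on chromosome 3 had a median of 0.60, went to −0.11 there, and SREBF2 to 0.09, EBP to 0.13 and HSD17B7 to 0.11, none of which passed. FDPS fell from 0.65 to 0.18 ± 0.07 (edgeR adjusted p = 0.0486), where its neighbours had a median of 0.47. IDI1 fell from 0.60 to 0.28 ± 0.08 (edgeR adjusted p = 0.00511), with a neighbour median of 0.32.

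The sterol decrease in the Fn14alpha knockout was mostly kept: 16 of 18 steps were lower, 0 were higher, and the median was −0.48, where 16.6% of all genes were lower and 14.4% higher with neighbours removed. HMGCS1 went to −0.83 ± 0.08, MSMO1 to −0.78 ± 0.07 and NSDHL, on the X chromosome, to −0.45 ± 0.07. In the Fn14 knockout 11 sterol steps were higher (19.9% of all genes) and 1 lower (22% of all genes), with a median of 0.27 and with MSMO1 at 0.93 ± 0.07 where its neighbours had a median of −0.86. Between the lines 17 of 18 were higher (23.7% of all genes) and 1, TM7SF2, was lower (23.6%), with a median of 0.78. There MSMO1 had the largest excess of the members (1.71 ± 0.07), above ELOVL6 (1.41 ± 0.08). Before removal they were at 1.23 ± 0.07 and 2.16 ± 0.08. Against WT, MSMO1 in the Fn14 knockout had been at 0.07 ± 0.07 and had not passed, so its call there comes from the subtracted median. INSIG1 stood at −0.70 ± 0.07 and 0.45 ± 0.07 against WT in the Fn14alpha and Fn14 knockouts, ELOVL6 at −0.63 ± 0.08 and 0.78 ± 0.07, and ABCA1 at −0.58 ± 0.09 and −1.22 ± 0.09. ABCA1 then differed between the lines (−0.64 ± 0.09, edgeR adjusted p = 2.2e-06).

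**Figure D5:**
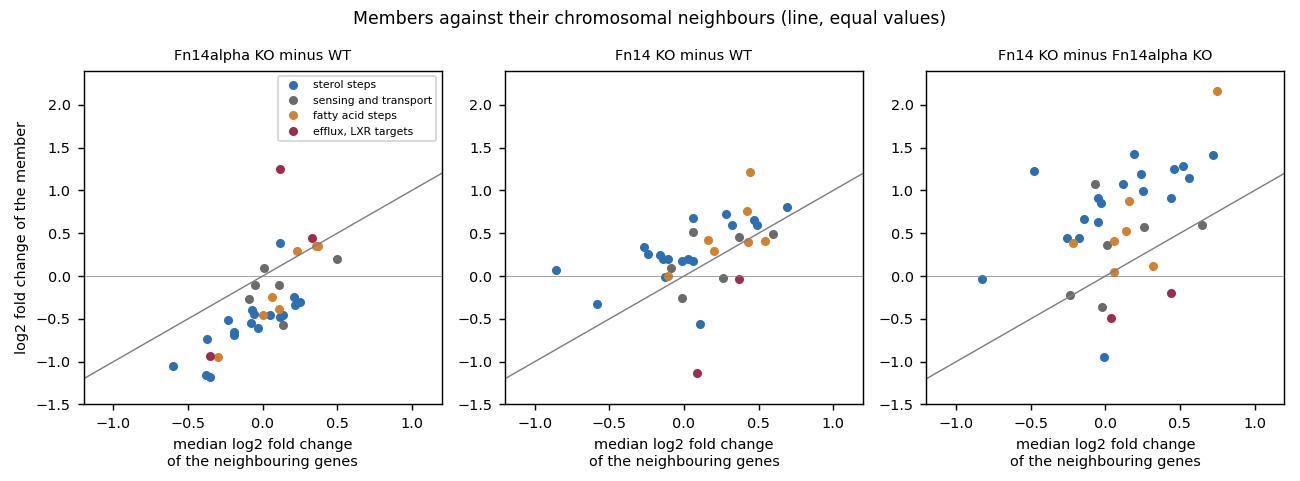
Log2 fold change of each member (y axis) against the median log2 fold change of the 20 nearest tested genes on each side (x axis), coloured by role, for the 3 comparisons that involve a knockout. The line marks equal values, and ABCG1 is left out of the panels with the Fn14 knockout because of its 3 counts. Sterol steps lie below the line in the Fn14alpha knockout, apart from TM7SF2, and above it in the comparison of the lines, where TM7SF2 again is the exception, while ACLY, ACACA and FASN lie near the line in the Fn14alpha knockout.

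Other genes of the pathways were taken from 3 further lists. Their counts are read against the shares of all genes, which were 20% higher and 22.2% lower without Fn14alpha, 26.6% and 26.3% without Fn14, and 30.7% and 28.5% between the lines. With TWEAK they were 4.82% and 2.05%. Of 24 tested genes of isoprenoid branches, SREBP processing and sterol transport, 0 passed with TWEAK, 6 were higher and 9 lower in the Fn14alpha knockout (median −0.1) and 5 were higher and 8 lower in the Fn14 knockout (median −0.06). Between the lines 7 were higher and 6 lower (median −0.03). The proteases that cut SREBP differed between the lines: MBTPS2, on the X chromosome, was 2.04-fold higher in the Fn14alpha knockout than in WT (23.2 against 11.1 FPKM), most of it shared with its neighbours (1.03 before and 0.25 after removing them). MBTPS1 was 1.73-fold lower in the Fn14 knockout than in WT (−0.79 ± 0.06, edgeR adjusted p = 3.67e-11). Its value with neighbours removed is not given here. SOAT1, which esterifies cholesterol, was lower in the Fn14alpha knockout (−0.32 ± 0.07) and higher in the Fn14 knockout (0.47 ± 0.07, 0.01 with neighbours removed).

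Of 26 tested genes around fatty acid synthesis and elongation, 1 was higher and 1 lower with TWEAK, namely FADS3 (0.22 ± 0.06) and the acetyl-CoA synthetase ACSS2 (−0.24 ± 0.07). In the Fn14alpha knockout 4 were higher and 13 lower (median −0.2), in the Fn14 knockout 13 were higher and 7 lower (median 0.2), and between the lines 16 were higher and 3 lower (median 0.26). MID1IP1, an activator of acetyl-CoA carboxylase, was 2.26-fold higher in the Fn14 knockout than in WT (12.2 against 5.83 FPKM; 1.18 ± 0.07, edgeR adjusted p = 1.94e-12). With neighbours removed no gene of this list was above 0.85 there. ELOVL2, an elongase of polyunsaturated chains, was higher in the Fn14alpha knockout (1.60 ± 0.12) and lower in the Fn14 knockout (−1.87 ± 0.17), against the direction of ELOVL6 in both. ACSL4, a ligase for long-chain acids on the X chromosome, was lower in the Fn14alpha knockout (−0.88 ± 0.07) and at 0.08 with neighbours removed.

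Of 12 tested genes around LXR, 1 was higher and 0 lower with TWEAK. That gene was NCEH1, which hydrolyses cholesteryl esters, at 33.1 against 25.5 FPKM (0.44 ± 0.08, edgeR adjusted p = 0.00101). In the Fn14alpha knockout 2 were higher and 3 lower, with SMPDL3A, an LXR target, at 0.938 against 2.16 FPKM (−1.22 ± 0.19) and RXRB at 15.9 against 11.4 (0.45 ± 0.07). With neighbours removed no gene of this list was below −0.95 there. In the Fn14 knockout 1 was higher and 7 lower, with NCEH1 at −0.63 ± 0.08 and the transporter ABCA7 at −1.05 ± 0.14. Between the lines 2 were higher and 6 lower, with ABCA7 at −1.62 ± 0.14 and SMPDL3A at 1.56 ± 0.19. There no gene of the list was above 1.05 with neighbours removed.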

How the data were processed

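The authors deposited raw read counts per gene and library with no normalization, and FPKM values in the same table. Per the file headers and the values, the authors' FPKM divides each count by the exonic gene size and by the total count of the library. HISAT2 2.0.1, HTSeq 0.6.1, DESeq2, cutadapt 1.9.1 and FastQC 0.10.1 are named in the submitters' processing notes, as are GRCh38.p13 and hg38, without their roles. No source used here states the strand setting of the counting. Further members share bases with a gene on the other strand, among them MVK with MMAB (326 bases) and NPC1 with RMC1 (25639 bases). Some genes of these pathways are not reported here.

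Members were matched by symbol, and members, lists and tests were chosen with earlier results of these data known. Replicate pairs within a group differed beyond counting error (chi-square per degree of freedom 2.3 to 39 over 24 pairs). Counts were tested with edgeR 4.0.16 in R 4.3.3: TMM scaling, filterByExpr by group, robust quasi-likelihood F-tests (two-sided), 1 mean per group over all 16 libraries, and a Benjamini-Hochberg threshold of 0.05 over 16029 genes. The standard error is the log2 fold change divided by the square root of F. The fit was tested on simulated data. Library values are given for up to 8 called members per comparison with the largest change and no overlap between groups, for SREBF1, SREBF2, INSIG1, SCAP and the efflux genes, and, of the other lists, up to 2 called genes with the smallest adjusted p per comparison were eligible. TM7SF2, MVD and other members were added after their values were seen. Alternatives were RLE and total-count scaling, no filter or a mean of at least 1 FPKM, DESeq2 1.42.0, limma 3.58.1 on log2(FPKM + 1) or log2(FPKM + 0.1), only the groups compared, the replicate number as a block, each library left out, 2 libraries left out and the median of neighbouring genes removed. Plots were drawn with matplotlib 3.10.9.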

Additional observations from a re-analysis of the deposited data

Results flagged for a closer look

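In 14 of 136 groups of 4 values, 1 library lay far from the other 3 by Dixon's ratio, where chance gives about 1 in 20. Fn14 knockout replicate 1 accounted for 5 of them and WT replicate 4 for another 5, the libraries that lay apart in the principal component analysis. In Fn14 knockout replicate 1, ACAT2 was at 63.89 FPKM against 51.5 to 53.1 in the others, PMVK at 26.92 against 14.5 to 16.5 and FDFT1 at 34.15 against 29.6 to 29.7, all high. SREBF2 was at 31.77 against 37.7 to 38.8 and FADS1 at 24.32 against 31.1 to 32.1, both low. In WT replicate 4, SQLE was high at 36.47 FPKM against 32.6 to 32.8. DHCR7 at 18.71 against 27.1 to 27.9, SREBF2 at 23.37 against 30.3 to 31.1, FASN at 21.45 against 31.5 to 32.5 and FADS2 at 28.76 against 36.0 to 37.0 were low. The other 4 were CYP51A1 at 1.13 FPKM in Fn14alpha knockout replicate 2 (1.65 to 1.69 in the others), STARD4 at 14.54 in TWEAK replicate 4 (15.8 to 15.9), NPC1 at 19.14 in Fn14alpha knockout replicate 1 (16.9 to 17.2) and ABCG1 at 0 in Fn14 knockout replicate 2 (0.01 each). The part of RNA quality in these values was not tested.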

How the results depend on the processing

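Of 91 called differences of members, 28 of 30 between the lines, 19 of 31 in the Fn14alpha knockout, 12 of 24 in the Fn14 knockout and 1 of 6 with TWEAK (ABCA1) kept direction and call in every alternative run. Of these, 9 turned in sign, all with the median of neighbouring genes removed: SREBF1 (−0.30), ACLY (−0.01) and ACACA (−0.01) in the Fn14alpha knockout, MVD (0.25), SCAP (−0.11), ACACA (−0.02) and FASN (−0.14) in the Fn14 knockout, and SREBF1 (0.02) and SCAP (−0.05) between the lines. With TWEAK the 6 called members became 11 with total counts and with limma on either pseudocount, 10 without both libraries that lay apart, and 2 to 11 with 1 library left out. The cause was not tested. In the other comparisons the counts of called members ran from 27 to 31, 22 to 26 and 30 to 31 with 1 library left out. Calls over all genes then ran from 759 to 1604 with TWEAK, and from 6038 to 7471, 8012 to 8867 and 8937 to 9852 in the others. Sterol steps called higher in the Fn14 knockout numbered 6 with total counts. Same-numbered replicates did not deviate together (correlations −0.228 to 0.108), so the numbers do not pair the samples. With the replicate block 5, 31, 25 and 30 members were called with TWEAK, in the Fn14alpha knockout, in the Fn14 knockout and between the lines, and IDI1 lost its call with TWEAK. Low counts limit ABCG1.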
